A study of Homo sapiens with 15 samples.

Results

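MiR-26a-5p, miR-26b-5p, miR-103a-3p and miR-107 are among the miRNAs that have been reported as hypoxamiRs, miRNAs whose levels change when cells lack oxygen. These 4 mature miRNAs were chosen by name, and none of the values below was used to choose them, though earlier results of these data were known at the time. Values were obtained for 3 of the 4, out of 1707 mature miRNAs counted, and miR-103a-3p was not analysed here. They were counted by miRNA-Seq in U87-MG, an established cell line from a human glioblastoma. Wild-type control cells (the labels give their genotype as WT), cells with HIF1α knocked out (HIF1α-KO), cells with HIF2α knocked out (HIF2α-KO) and cells that lacked both (HIF1α/HIF2α-KO) were kept in hypoxia, 1% O2, for 24 h, and control cells were also kept in normoxia, 21% O2, for 24 h. Each of these 5 groups had 3 replicates. The knockouts were made with lentiviral CRISPR/Cas9, and whether the replicates were separate cultures or a knockout line was a single clone is not stated in the labels, so that p-values measure the spread between these libraries only. Small RNA libraries hold no mRNA counts for HIF1A and EPAS1, the genes of HIF1α and HIF2α, and loss of the targeted genes was therefore not checked in these data. The paper reports that the knockouts were checked by immunofluorescence or western blotting, and its figure of that staining is of primary glioblastoma cells.

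A miRNA guides the Argonaute complex to mRNAs that pair with its seed, bases 2 to 8 from the 5′ end, and miRNAs with the same seed are counted as a family because they can bind the same sites. HIF1α and HIF2α are the oxygen-sensitive subunits of the hypoxia-inducible transcription factors, and the best known hypoxamiR, miR-210-3p, is a direct target of HIF1α in many cell types. MiR-103 and miR-107 are known as repressors of DICER1, the enzyme that cuts miRNA hairpins, and miR-107 has been described as a repressor of the HIF partner ARNT.

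The mature sequences are shown because the members of each family differ at 1 or 2 bases, on which their separate counting depends. They are those of RefSeq (GRCh38.p14), written 5′ to 3′ with the seed in capitals.
hsa-miR-26a-5p: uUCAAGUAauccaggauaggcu
hsa-miR-26b-5p: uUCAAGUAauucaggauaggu
hsa-miR-1297: uUCAAGUAauucaggug
hsa-miR-103a-3p: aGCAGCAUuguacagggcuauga
hsa-miR-107: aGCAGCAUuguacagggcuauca

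MiR-26a-5p has 22 bases and miR-26b-5p has 21, of which 19 are identical, and miR-26b-5p differs by C11U and C21U (the base of miR-26a-5p first, counted from 1 at the 5′ end). MiR-107 and miR-103a-3p, each of 23 bases, differ only by G22C (the base of miR-103a-3p first). A read of either miRNA that ends before base 22 therefore matches both, and how such reads were assigned is not given in the sources used here, so the level of miR-107 is uncertain to that extent. MiR-1297 shares the seed of miR-26 and, over its 17 bases, 15 with miR-26b-5p. The GC content was 40.9% for miR-26a-5p, 33.3% for miR-26b-5p and 47.8% for miR-107.

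The hairpins of miR-26a, miR-26b, miR-103a and miR-107 lie in introns of protein-coding genes, on the strand of the host gene (GENCODE v29, GRCh38). MiR-26a-5p has a pair of hairpins, MIR26A1 in CTDSPL, with the mature miRNA at chr3:37969413-37969434 on the plus strand, and MIR26A2 in CTDSP2, with it at chr12:57824658-57824679 on the minus strand. MIR26B lies in CTDSP1, and miR-26b-5p at chr2:218402657-218402677 on the plus strand. The hosts of the miR-26 hairpins encode small phosphatases of the RNA polymerase II C-terminal domain. MIR107 lies in PANK1, which encodes a pantothenate kinase of coenzyme A synthesis, and miR-107 at chr10:89592756-89592778 on the minus strand. The counts of a mature miRNA are summed over its hairpins, so MIR26A1 and MIR26A2 cannot be told apart by miR-26a-5p.

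The libraries held 10360337 to 22496373 counts. A floor of 3 counts, which covers counting error only, was at most 0.290 CPM in any of them, where CPM are counts per 1000000 counts of the library. Levels are given as CPM after TMM scaling, which evens out differences in library composition. The levels of the markers in this paragraph, miR-126 included, are CPM without that scaling. Among the markers examined, the glioma-associated miR-21-5p was at 165000 to 255200 CPM and, of a pair of neuronal markers, miR-124-3p was at 0 in 10 of the 15 libraries while miR-128-3p was at 866 to 2213 CPM in all 15. The libraries were divided into 2 sets at the widest gap in log2 miR-126, a rule that always gives 2 sets. The gap was 2.09-fold. The arms of miR-126 are endothelial markers, and their sum ranged from 14.5 to 51.9 CPM in 9 libraries and from 3.901 to 6.95 CPM in 6. Nearly all of it was miR-126-3p, as miR-126-5p was at most 0.984 CPM and at 0 in 2 libraries. The 6 libraries with the lower values were replicates 2 and 3 of hypoxic control cells, replicates 1 and 2 of HIF1α-KO cells, replicate 2 of HIF2α-KO cells and replicate 3 of HIF1α/HIF2α-KO cells. All 3 normoxic libraries were in the set with the higher values. The summed blood markers (4 miRNAs) also differed between the sets, at 7.16 to 19.9 CPM and 3.25 to 4.12 CPM. That sum was largely miR-451a, at 2.08 to 18.7 CPM over all libraries. MiR-142-3p was at most 2.08 CPM, miR-486-5p was at 0 in 14 libraries and miR-223-3p at 0 in 9. The summed stromal markers (2 miRNAs) overlapped between the sets, at 179 to 403 CPM and 113 to 232 CPM. Values within the sets are given beside several of the differences described here.

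MiR-26a-5p was by far the most abundant of the 3 miRNAs, with 1.81% to 4.26% of all counts and a rank between 5 and 11 among the 1707 miRNAs in every library. MiR-26b-5p took 0.0306% to 0.200% of the counts and miR-107 took 0.120% to 0.199%. Counts of different miRNAs also depend on how efficiently each is ligated and amplified, so these are shares of counts and not of molecules. The level of miR-26b-5p varied 7.14-fold between the lowest and the highest of the 15 libraries, against 1.97-fold for miR-26a-5p and 1.84-fold for miR-107. Much of this lay between replicates. The SD within groups was 0.83 on the log2 CPM scale for miR-26b-5p, 0.27 for miR-26a-5p and 0.20 for miR-107. The median was 0.34 over the 562 miRNAs tested, and 91.8% of them, miR-26b-5p itself counted, had an SD no higher than that of miR-26b-5p.

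**Figure D1:**
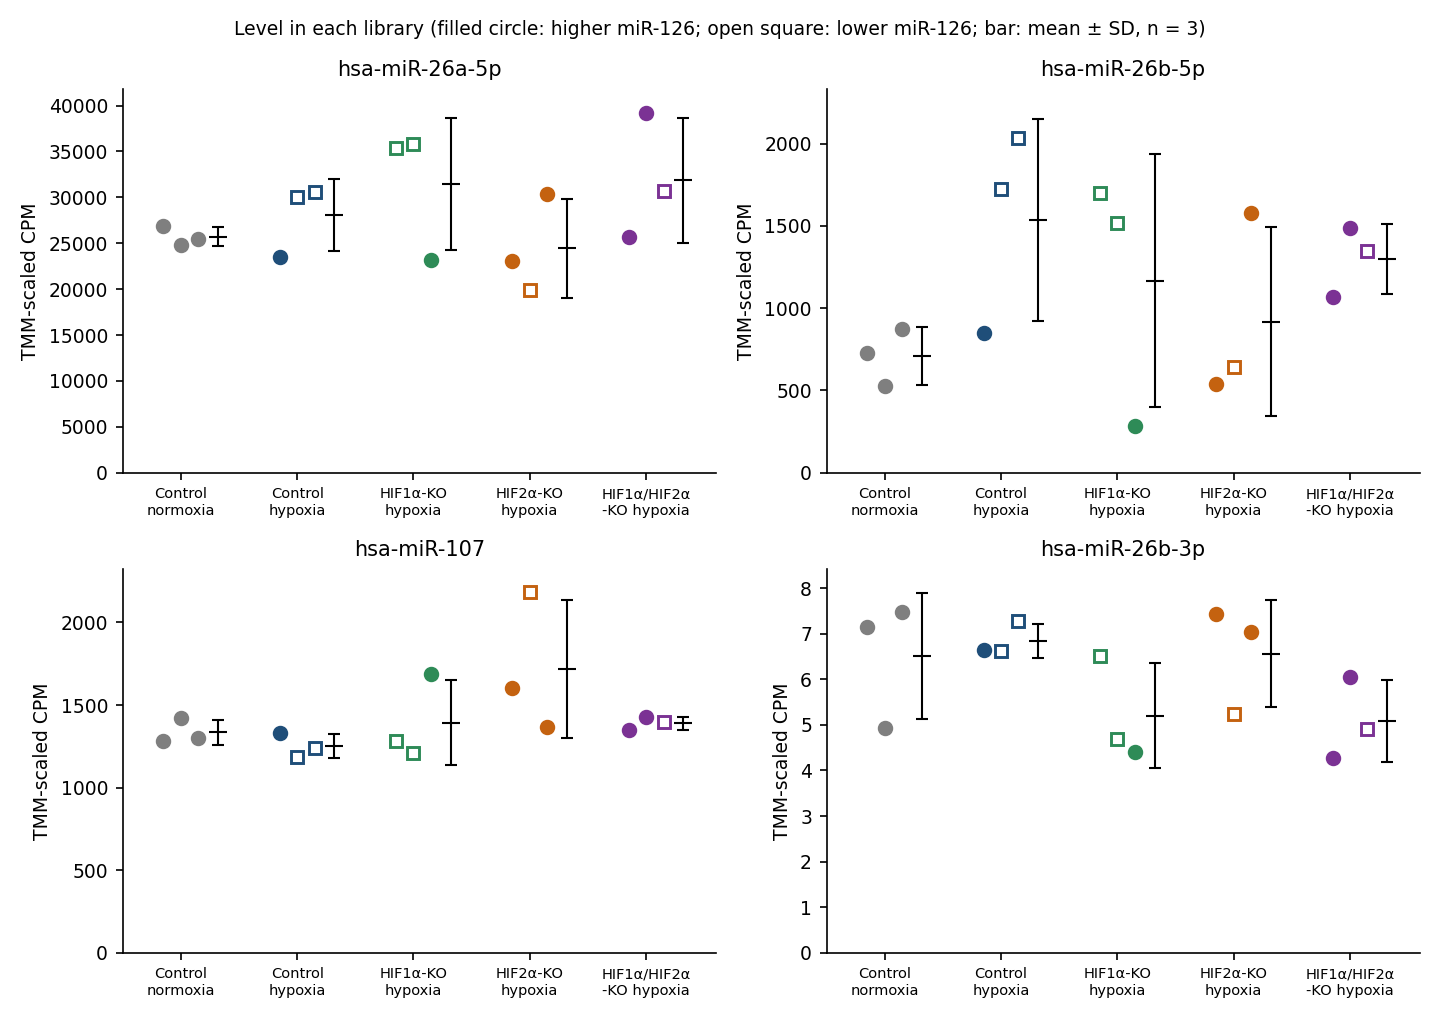
Level of miR-26a-5p, miR-26b-5p, miR-107 and the opposite arm miR-26b-3p in each of the 15 libraries, in TMM-scaled CPM on linear axes that start at 0, by group (x axis). Points are libraries (filled circles for the 9 with higher miR-126, open squares for the 6 with lower miR-126) and bars are the mean ± SD of 3 replicates; miR-26b-5p spans 285 to 1697 CPM within HIF1α-KO cells alone, while miR-107 stays between 1188 and 2182 CPM throughout.

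By group, the mean level of miR-26a-5p was 24444 ± 5387 CPM (SD, n = 3) in HIF2α-KO cells, 25717 ± 1048 in normoxic control cells, 28045 ± 3917 in hypoxic control cells, 31437 ± 7200 in HIF1α-KO cells and 31878 ± 6807 in the double knockout. No neighbours in this order, and none of the 10 pairs of groups, were without overlap. The mean level of miR-26b-5p was 709.6 ± 175 CPM in normoxic control cells, 919 ± 573 in HIF2α-KO cells, 1166 ± 769 in HIF1α-KO cells, 1299 ± 214 in HIF1α/HIF2α-KO cells and 1536 ± 613 in hypoxic control cells. Of its 10 pairs of groups, 1 did not overlap, where 16.4% to 39% of the miRNAs tested were without overlap in a given pair, and no pair of neighbours differed beyond its spread. The mean level of miR-107 was 1252 ± 70.5 CPM in hypoxic control cells, 1334 ± 76.2 in normoxic control cells, 1390 ± 40.4 in HIF1α/HIF2α-KO cells, 1392 ± 257 in HIF1α-KO cells and 1718 ± 418 in HIF2α-KO cells, and 2 of its 10 pairs, but no neighbours, did not overlap. The smallest p that an exact permutation test of 3 libraries against 3 can give is 0.1, and after adjustment over the 10 pairs the lowest was 0.571 for miR-26a-5p, 0.667 for miR-26b-5p and 0.429 for miR-107.

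None of the 3 miRNAs was called in any comparison. Each was tested in 11 comparisons with the quasi-likelihood test of edgeR, with Benjamini-Hochberg adjustment over the 562 miRNAs tested, and of the 33 tests 0 had an adjusted p under 0.05 and 2, both of miR-107, had an unadjusted p under 0.05. MiR-210-3p, for comparison, passed in 6 of these 11 with log2 fold changes between -2.79 and 2.33. Hypoxia against normoxia in control cells was not among the 6. The mean level of miR-210-3p there was 1042 ± 109 CPM in hypoxia and 1187 ± 151 CPM in normoxia (SD, n = 3). The fitted log2 difference was -0.19 (SE 0.30, adjusted p = 0.841). In that comparison, the lack of a call for the 3 miRNAs therefore stands beside no detected rise of miR-210-3p.

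The first question was whether hypoxia alone moved these miRNAs in control cells. MiR-26b-5p was measured at 726, 527 and 876 CPM in normoxia and at 851, 1723 and 2034 CPM in hypoxia. Replicates 2 and 3 of the hypoxic cells lay above all normoxic libraries, and replicate 1 lay inside their range. The fitted log2 fold change was 1.11 (SE 0.55, 95% CI -0.06 to 2.29, adjusted p = 0.724), a 2.16-fold difference with a CI of 0.959 to 4.89. MiR-26a-5p was at 26864, 24810 and 25477 CPM in normoxia and at 23530, 30076 and 30530 CPM in hypoxia, with a log2 fold change of 0.13 (SE 0.20, 95% CI -0.30 to 0.55, adjusted p = 0.841). The hypoxic libraries of miR-26a-5p lay on both sides of the normoxic ones, with the 1 in the set with higher miR-126 below them and the 2 in the other set above them, and the log2 fold change was 0.04 with the set as a covariate. MiR-107 was at 1280, 1421 and 1302 CPM in normoxia and at 1328, 1188 and 1240 CPM in hypoxia, with overlap between the groups. Its log2 fold change was -0.09 (SE 0.16, 95% CI -0.44 to 0.25, adjusted p = 0.859), so the interval leaves out a rise of more than 1.19-fold. In this comparison 0% of the 562 miRNAs were called, while 35 had an unadjusted p under 0.05, and DESeq2 and limma also called 0. Groups without overlap were found for 17.8% of the miRNAs, none of the 3 members among them.

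Among control cells, the highest levels of miR-26b-5p were in libraries with lower miR-126. The libraries at 1723 and 2034 CPM were both in the set with lower miR-126, which holds no normoxic library, and the only hypoxic control library in the other set was at 851 CPM, between the normoxic values of 527 and 876. With the set as a covariate the log2 fold change was 0.56 (SE 0.58). Without the filter on low counts, a fit in which the SE of miR-26b-5p was 0.19, the log2 fold change was 1.16 and passed with an adjusted p of 4.03e-07. Under the other alternatives, replicates left out included, the adjusted p was between 0.296 and 0.991.

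The second question was the effect of HIF1α loss in hypoxia. MiR-26b-5p was at 1697, 1518 and 285 CPM in HIF1α-KO cells, beside 851, 1723 and 2034 CPM in control cells. Replicate 3 of HIF1α-KO cells was the lowest of all 15 libraries, and the other 2 replicates were within the range of control cells. The log2 fold change was -0.40 (SE 0.54, 95% CI -1.56 to 0.77, adjusted p = 0.848) and 0.07 without that replicate. Within the set with lower miR-126, HIF1α-KO cells were at 1518 to 1697 CPM (2 libraries) and control cells at 1723 to 2034 CPM (2 libraries), and within the other set the values were 285 and 851 CPM (1 library each). MiR-26a-5p was at 35423, 35763 and 23125 CPM in HIF1α-KO cells, with a log2 fold change of 0.16 (SE 0.20, 95% CI -0.27 to 0.59, adjusted p = 0.833). Within the set with lower miR-126 these cells were at 35423 to 35763 CPM and control cells at 30076 to 30530 CPM (2 libraries each), and within the other set at 23125 and 23530 CPM (1 library each). The same replicate 3 was the lowest of the 3 for both miR-26 members and the highest for miR-107, which was at 1282, 1209 and 1686 CPM. MiR-107 had a log2 fold change of 0.15 (SE 0.16, 95% CI -0.19 to 0.50, adjusted p = 0.800), which was -0.0023 without replicate 3. Of all miRNAs tested, 1.25% were called in this comparison.

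The third question was the effect of HIF2α loss in hypoxia, where miR-107 had its largest log2 fold change between any pair of groups. MiR-107 was at 1604, 2182 and 1369 CPM in HIF2α-KO cells, and all 3 were above the 1188 to 1328 CPM of hypoxic control cells. The log2 fold change was 0.46 (SE 0.16, 95% CI 0.11 to 0.80, adjusted p = 0.219), or 1.37-fold, which did not pass after adjustment. Its unadjusted p was 0.0130 in edgeR's quasi-likelihood test, the 32nd lowest of the 562. Groups without overlap, in either direction, were found for 16.4% of the miRNAs in this comparison. Without replicate 2 of HIF2α-KO cells, the library at 2182 CPM, the fold change on the log2 scale was 0.22 (adjusted p = 0.727). Within the set with higher miR-126, HIF2α-KO cells were at 1369 to 1604 CPM (2 libraries) and control cells at 1328 CPM (1 library), and within the other set 2182 CPM (1 library) stood beside 1188 to 1240 CPM (2 libraries).

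The miR-26 members were lower on average in HIF2α-KO than in control cells, but neither passed. MiR-26b-5p was at 538, 641 and 1577 CPM, so that replicates 1 and 2 lay below every hypoxic control library and replicate 3 lay among them. The log2 fold change was -0.74 (SE 0.54, 95% CI -1.91 to 0.43, adjusted p = 0.585), and -1.45 without replicate 3. It passed only in the fit without a filter on low counts (log2 fold change -0.80, adjusted p = 0.00770). MiR-26a-5p was at 23051, 19889 and 30390 CPM, with a log2 fold change of -0.20 (SE 0.20, 95% CI -0.63 to 0.23, adjusted p = 0.704). In this comparison 0% of the miRNAs were called, while 86 had an unadjusted p under 0.05, and DESeq2 and limma called 0.

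With both HIF1α and HIF2α knocked out, miR-26b-5p was at 1065, 1485 and 1347 CPM, within the range of hypoxic control cells. The log2 fold change was -0.24 (SE 0.54, 95% CI -1.40 to 0.92, adjusted p = 0.832), 0.04 without replicate 3 of control cells and 0.10 with the miR-126 set as a covariate. Within the set with higher miR-126 the double knockout was at 1065 to 1485 CPM (2 libraries) and control cells at 851 CPM (1 library), and within the other set 1347 CPM (1 library) stood beside 1723 to 2034 CPM (2 libraries). MiR-26a-5p was at 25718, 39186 and 30730 CPM, and its log2 fold change was 0.18 (SE 0.20, 95% CI -0.24 to 0.61, adjusted p = 0.650). The 39186 CPM of replicate 2 was its highest level in any library. MiR-107 was at 1346, 1426 and 1397 CPM, each just above the highest hypoxic control library, with a log2 fold change of 0.15 (SE 0.16, 95% CI -0.19 to 0.49, adjusted p = 0.643). Groups without overlap were found for 30.4% of all miRNAs in this comparison, and 5.87% were called.

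Differences among the knockouts were tested as well. Between HIF2α-KO and HIF1α-KO cells, where 1.07% of the miRNAs were called, the log2 fold change was -0.36 (SE 0.20) for miR-26a-5p, -0.34 (SE 0.54) for miR-26b-5p and 0.30 (SE 0.16) for miR-107, with adjusted p of 0.351, 0.805 and 0.343. All 3 miRNAs overlapped between these groups, as did all but 20.5% of the miRNAs tested. With the miR-126 set as a covariate, the value of miR-26b-5p turned from -0.34 to 0.16, and without replicate 2 of HIF2α-KO cells that of miR-107 was 0.04. Between HIF1α/HIF2α-KO and HIF2α-KO cells, where 1.78% were called, miR-26a-5p had a log2 fold change of 0.38 (SE 0.20, adjusted p = 0.323) and miR-107 of -0.31 (SE 0.16, adjusted p = 0.323), which was -0.085 without replicate 2 of HIF2α-KO cells. On quantile-normalized values in limma, the log2 differences of miR-26a-5p in these 2 comparisons were -0.60 and 0.60, and both passed (adjusted p = 0.0191 and 0.0170). MiR-26b-5p had a log2 fold change of 0.50 (SE 0.54, adjusted p = 0.660) between HIF1α/HIF2α-KO and HIF2α-KO cells. Between HIF1α/HIF2α-KO and HIF1α-KO cells, where 1.42% were called, the values were 0.02 for miR-26a-5p, 0.15 for miR-26b-5p and -0.0019 for miR-107, with adjusted p of 0.969, 0.918 and 0.995.

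The interaction, which sets the effect of the double knockout against the sum of the single effects, was -0.46 on the log2 scale for miR-107 (SE 0.23, 95% CI -0.94 to 0.03, adjusted p = 0.535), beside single-knockout log2 fold changes of 0.15 and 0.46. It was -0.27 without replicate 3 of HIF1α-KO cells. For miR-26b-5p it was 0.90 (SE 0.77, adjusted p = 0.749) and for miR-26a-5p 0.22 (SE 0.28, adjusted p = 0.801). The interaction was called for 0% of the miRNAs, 59 had an unadjusted p under 0.05, and DESeq2 and limma called 0.

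Knockout cells in hypoxia were also compared with control cells in normoxia, which differ in both genotype and oxygen. These comparisons share their normoxic libraries with the comparison of hypoxia and normoxia above. MiR-26b-5p was higher in all 3 HIF1α/HIF2α-KO libraries (1065 to 1485 CPM) than in the normoxic libraries (527 to 876 CPM), with a log2 fold change of 0.87 (SE 0.54, 95% CI -0.30 to 2.04, adjusted p = 0.325). In that comparison 39% of the miRNAs had groups without overlap and 6.41% were called. With only these 6 libraries in the fit, the log2 fold change was 0.87 (SE 0.19) and passed with an adjusted p of 0.0147, and without a filter it was 0.93 with an adjusted p of 0.000108. For HIF1α-KO cells the log2 fold change of miR-26b-5p was 0.72 (SE 0.54, adjusted p = 0.526), with 2.31% of the miRNAs called and 26.7% without overlap, and without a filter 0.78 with an adjusted p of 0.00396. For HIF2α-KO cells it was 0.37 (SE 0.54, adjusted p = 0.785). With the first principal component of the other miRNAs as a covariate, all 3 turned, to -0.53 in the double knockout, -0.60 in HIF1α-KO and -0.26 in HIF2α-KO cells. All 3 normoxic libraries scored above 0 on this component and all 3 double-knockout libraries below 0, so the covariate cannot be told apart from that comparison. It was partly shared with the other 2, since 2 libraries of each single knockout scored below 0 and 1 above. MiR-107 was higher in HIF2α-KO cells than in normoxic control cells by 0.36 (SE 0.16, 95% CI 0.02 to 0.71, adjusted p = 0.317), with overlap between the groups, in a comparison in which 0% of the miRNAs were called by edgeR, DESeq2 and limma and 85 had an unadjusted p under 0.05 in edgeR. Without replicate 2 of HIF2α-KO cells this value was 0.14 (adjusted p = 0.825). The other 2 values of miR-107, 0.06 without HIF1α and 0.06 without either factor (adjusted p = 0.863 and 0.840), were within their errors of 0.16. MiR-26a-5p differed by 0.29, -0.07 and 0.31 in the HIF1α, HIF2α and double knockouts (SE 0.20 each), with adjusted p of 0.506, 0.915 and 0.341.

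**Figure D2:**
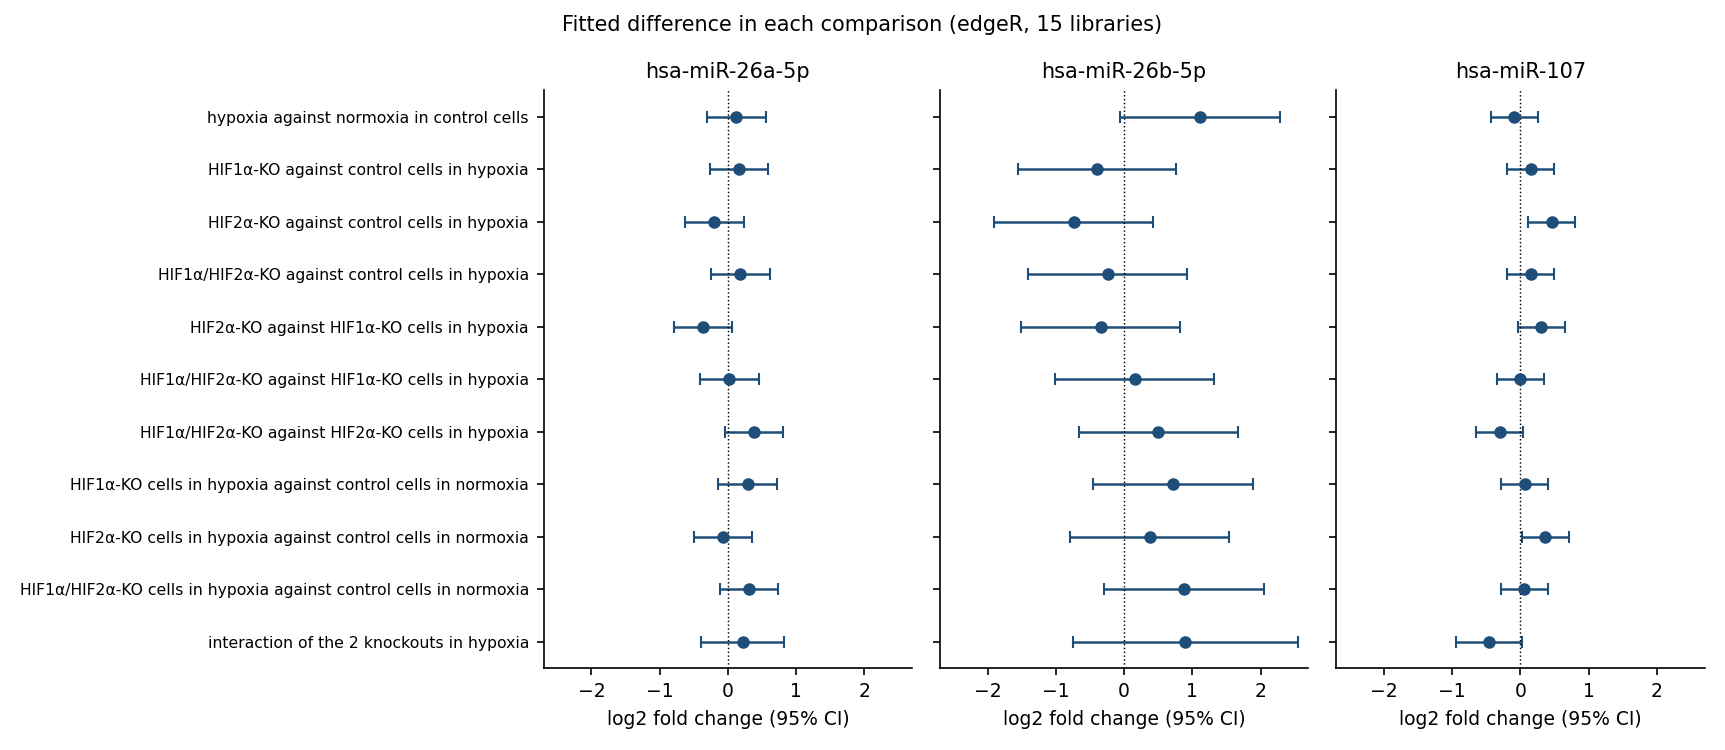
Fitted log2 fold change (x axis, points) with its 95% confidence interval (bars) for miR-26a-5p, miR-26b-5p and miR-107 in the 11 comparisons (y axis), each first group against the second, from a single edgeR fit of 15 libraries. The intervals of miR-26b-5p are the widest, with an SE near 0.54, and only 2 intervals, both of miR-107 in HIF2α-KO cells, leave out 0.

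Because miR-26a-5p and miR-26b-5p share a seed, the family was also taken as a whole. The sum of both had log2 fold changes of 0.17 in hypoxia against normoxia (SE 0.21, 95% CI -0.28 to 0.61, adjusted p = 0.841), 0.14 in HIF1α-KO (adjusted p = 0.868), -0.22 in HIF2α-KO (adjusted p = 0.677) and 0.17 in the double knockout (adjusted p = 0.682) against hypoxic control cells. These values were close to those of miR-26a-5p, which held most of the family's counts. The third listed miRNA with this seed, miR-1297, had 0 to 35 counts per library. It had 4 to 35 counts in the 6 libraries with lower miR-126 and 0 to 2 counts, at or under the floor of 3, in the other 9, and it passed in no comparison. Its log2 fold change in edgeR was 3.82 in hypoxia against normoxia (SE 1.42, adjusted p = 0.701) and -2.87 in HIF2α-KO against hypoxic control cells (SE 1.31, adjusted p = 0.316). The study lists miR-1297, without values, as lower in HIF2α-KO than in control U87 cells.

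MiR-26b-5p made up 2.63%, 2.08% and 3.32% of the counts of both miR-26 miRNAs in normoxic control cells and 3.49%, 5.42% and 6.25% in hypoxic control cells. All 3 hypoxic shares were above the normoxic ones, and the difference of the mean log2 ratio of miR-26b-5p to miR-26a-5p was 0.94, with p = 0.1 in the two-sided exact permutation test, the smallest it can give, and 0.5 after adjustment over the 10 pairs. The hypoxic shares of 5.42% and 6.25% were in libraries with lower miR-126, a set without normoxic libraries. That of 3.49% was in the set with higher miR-126, close to the highest normoxic share of 3.32%. This ratio does not depend on the scaling between libraries, but miR-26b-5p and miR-26a-5p differ in GC content (33.3% and 40.9%). The share was 4.57%, 4.07% and 1.22% in HIF1α-KO cells, 2.28%, 3.12% and 4.93% in HIF2α-KO cells and 3.98%, 3.65% and 4.20% in the double knockout. Only the double knockout was without overlap with normoxic control cells (difference 0.60, exact permutation p = 0.1), and no knockout group was without overlap with hypoxic control cells. Among the levels of single miRNAs, 17.8% were without overlap in hypoxia against normoxia and 39% in the double knockout against normoxia. How often the ratios of other pairs of miRNAs were without overlap was not tested.

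The opposite arm of the MIR26B hairpin did not share the variation of miR-26b-5p. MiR-26b-3p had 49 to 153 counts per library and ranged over 1.75-fold, from 4.28 to 7.48 CPM, whereas miR-26b-5p ranged over 7.14-fold. Its mean was 6.52 ± 1.38 CPM (SD, n = 3) in normoxic and 6.84 ± 0.38 CPM in hypoxic control cells, with a log2 fold change of 0.07 (SE 0.22, adjusted p = 0.953), and it passed in no comparison. Per count of miR-26b-3p, miR-26b-5p had 101.5, 106.9 and 117 counts in the normoxic libraries and 128, 261 and 279 counts in the hypoxic control libraries. The lowest ratio was 64.7, in replicate 3 of HIF1α-KO cells, and the highest was 324, in replicate 2 of the same group. Both arms come from the same hairpin, and whether the difference between them arose in the cells or in the libraries was not tested. Of the 3p arms of the MIR26A hairpins, miR-26a-2-3p ranged from 0.629 to 12.1 CPM and miR-26a-1-3p from 0.190 to 1.93 CPM. Neither passed in any comparison, and the lowest value of miR-26a-2-3p was again in replicate 3 of HIF1α-KO cells. Over the 15 libraries, Pearson's r with miR-26b-5p (log2 CPM) was 0.86 for miR-26a-2-3p, 0.47 for miR-26a-1-3p and 0.29 for miR-26b-3p. In HIF1α/HIF2α-KO cells against normoxia, the log2 fold change of miR-26a-2-3p in edgeR was 2.20 (SE 0.77, adjusted p = 0.0992). The 5p arms of MIR103A1 and MIR103A2 had at most 1 and 8 counts in any library and were too low to be tested.

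**Figure D3:**
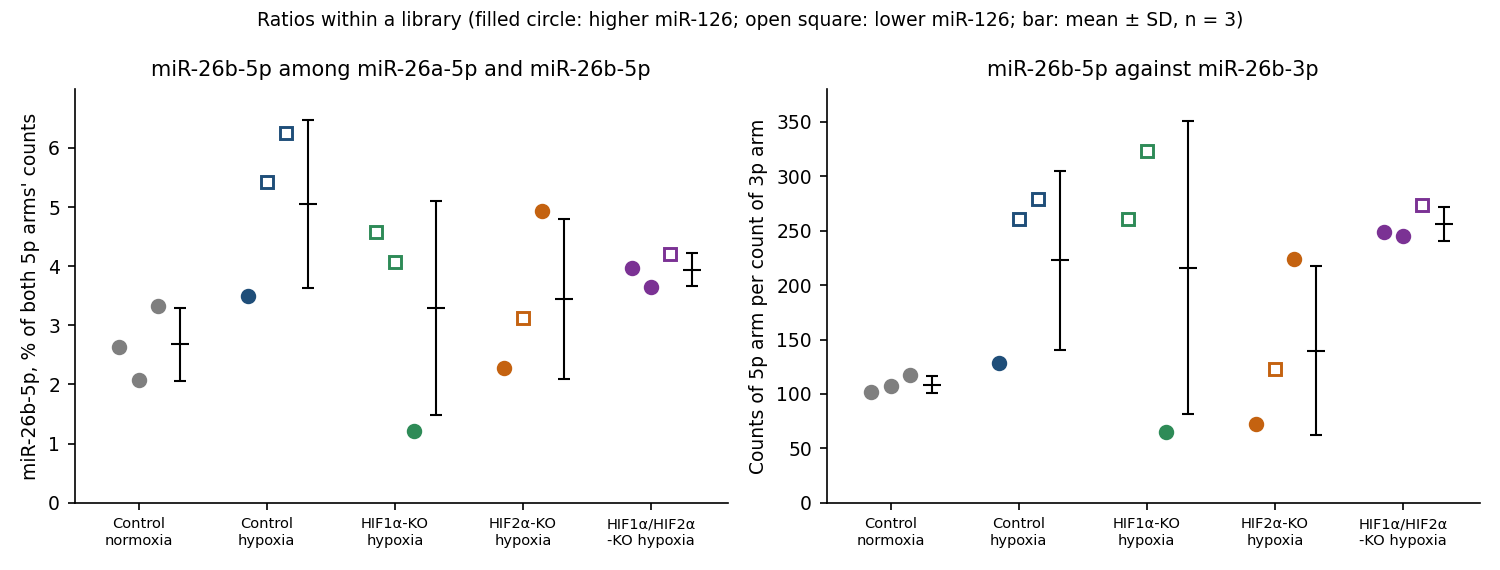
Counts of miR-26b-5p as a percentage of the counts of miR-26a-5p and miR-26b-5p (left) and per count of its opposite arm miR-26b-3p (right) in each of the 15 libraries, by group (x axis), on axes that start at 0. Points are libraries (open squares have lower miR-126) and bars are the mean ± SD of 3 replicates; replicate 3 of HIF1α-KO cells is the lowest in both, at 1.22% and 64.7 counts.

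The spread of miR-26b-5p was shared with other miRNAs. Over the 15 libraries, the levels (log2 CPM) most like its own were those of let-7f-5p (Pearson's r 0.98), let-7a-3p (0.98) and miR-577 (0.95), which, like miR-26b-5p, had a low GC content, of 31.8%, 33.3% and 28.6%, beside a median of 47.8% over the 513 tested miRNAs with a value. The levels most like miR-26a-5p were those of miR-10b-3p (0.93), miR-10a-3p (0.84) and miR-3179 (0.83), with a GC content of 40.9%, 36.4% and 36.4%. Those most like miR-107 were miR-140-3p (0.88), miR-17-5p (0.86) and miR-93-5p (0.85), with 57.1%, 47.8% and 52.2%. These were the 3 highest r among the miRNAs tested and are given as a description, over libraries that share groups and depth.

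The main axis of variation among the other miRNAs, the first principal component of their log2 CPM, took up 38.8% of the variance and left a gap between 6 libraries, with scores of 6.84 to 11.2, and 9 libraries, with scores of -10.9 to -0.849. The 6 libraries were the 3 normoxic ones, replicate 1 of hypoxic control cells, replicate 3 of HIF1α-KO cells and replicate 1 of HIF2α-KO cells. MiR-26b-5p was at 285 to 876 CPM (median 632) in these 6 and at 641 to 2034 CPM (median 1518) in the other 9, and only replicate 2 of HIF2α-KO cells, at 641 CPM, lay within the range of the first 6. MiR-26a-5p was at 23051 to 26864 CPM and 19889 to 39186 CPM, miR-107 at 1280 to 1686 CPM and 1188 to 2182 CPM, and miR-26b-3p at 4.40 to 7.48 CPM and 4.28 to 7.28 CPM, all with overlap. With the component as a covariate, the log2 fold change of miR-26b-5p in hypoxia against normoxia was 0.07 (SE 0.30) in place of 1.11, and that of HIF1α-KO against hypoxic control cells was -0.67 (SE 0.27, adjusted p = 0.230) in place of -0.40. That of miR-107 in HIF2α-KO against control cells was 0.41 (SE 0.15, adjusted p = 0.202). Across the 513 miRNAs, which are not independent replicates, GC content had a Pearson's r of 0.61 with the correlation of each miRNA with the component. After correction for GC content the log2 fold change of miR-26b-5p in hypoxia against normoxia was 0.62 (SE 0.28, adjusted p = 0.698). The covariate and the correction were chosen after seeing the data. All 3 normoxic libraries scored above 0 on the component and 2 of the 3 hypoxic control libraries below 0. As a covariate it therefore takes up part of the comparison of hypoxia with normoxia. No source used here says whether the libraries of the 2 sides were prepared apart, and whether this axis arose in the cells or in the preparation was not tested.

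**Figure D4:**
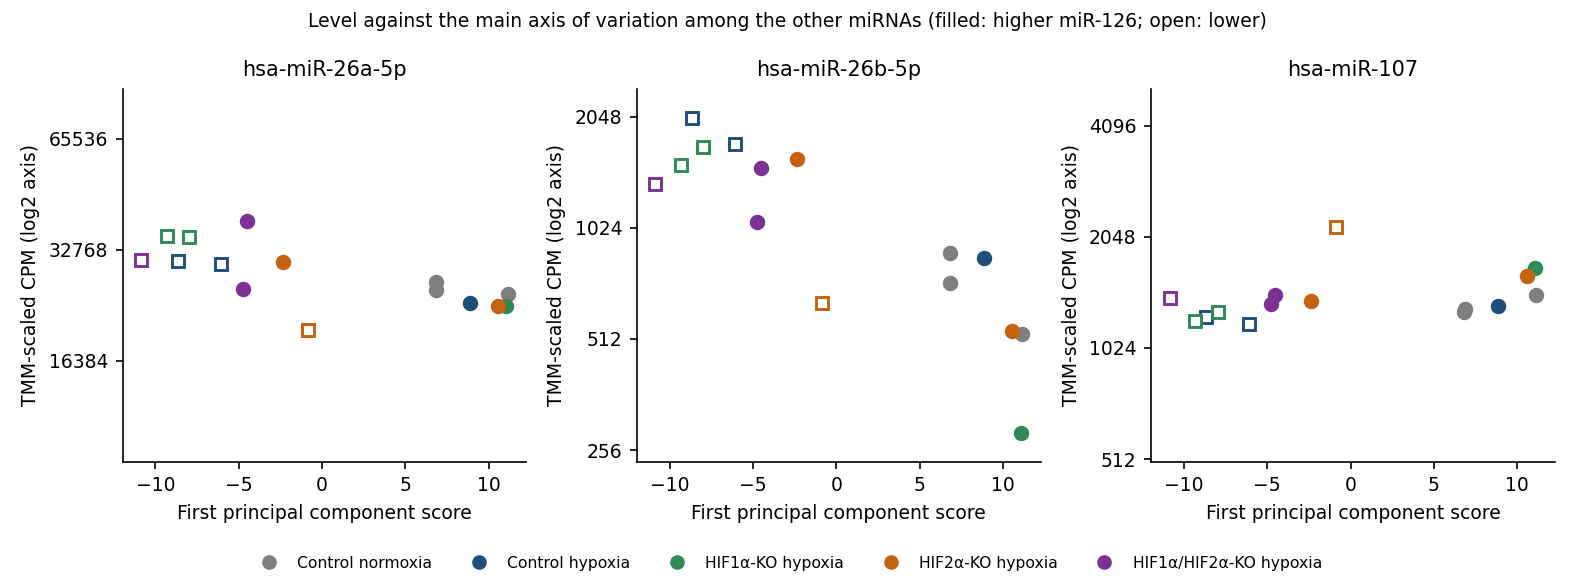
Level of miR-26a-5p, miR-26b-5p and miR-107 (y axis, TMM-scaled CPM on a log2 axis) against the score of each library on the first principal component of the other miRNAs (x axis, no unit). Each point is 1 of 15 libraries, coloured by group, filled where miR-126 is higher and open where it is lower; the 6 libraries with scores above 0 hold miR-26b-5p at 285 to 876 CPM, and the 9 below 0 hold it at 641 to 2034 CPM.

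Of a list of 10 other reported hypoxamiRs (miR-210-3p, miR-23a-3p, miR-23b-3p, miR-24-3p, miR-27a-3p, miR-27b-3p, miR-181a-5p, miR-181b-5p, miR-181c-5p and miR-181a-3p), all 10 were tested, and 0 were called in hypoxia against normoxia by edgeR, in which their median log2 fold change was 0.07, beside 0.01 over all 562 miRNAs. With HIF1α or both factors knocked out, against hypoxic control cells, 1 of the 10 was lower and none was higher, and in HIF2α-KO cells 0 were called. Over all 562 miRNAs, 1.25%, 5.87% and 0% were called in these comparisons, in the same order. The medians in these comparisons were -0.05, -0.14 and 0.12, beside -0.05, -0.02 and -0.01 over all miRNAs. The called member was miR-210-3p each time, and the other 9, like miR-26a-5p, miR-26b-5p and miR-107, passed in none of the 11 comparisons.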

How the data were processed

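The authors deposited raw counts of reads per mature miRNA for each of 15 libraries, as whole numbers without normalization. Their processing notes name HISAT2, StringTie and DESeq2, and the study's methods name a quantile normalization, which was not applied to the deposited values. The versions, the genome build and the treatment of reads that match several miRNAs are not given in the sources used here.

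The counts were fitted in edgeR 4.0.16 under R 4.3.3 (TMM factors, filterByExpr, 562 of 1707 miRNAs kept, which held at least 99.988% of the counts of every library). All 15 libraries entered a single quasi-likelihood fit with a mean for each group, with Benjamini-Hochberg adjustment and a threshold of 0.05. Log2 CPM used a prior count of 2. Ratios and levels were compared with two-sided exact permutation tests. The fitting steps were run on simulated counts with changes planted in hypoxic control cells only and the same spread for every miRNA. That check does not cover a miRNA with a wider spread, such as miR-26b-5p, or an axis of variation among libraries. No replicates were copies of one another (chi-square per degree of freedom at least 56.2). Alternatives used DESeq2 1.42.0, limma 3.58.1 on log2(CPM + 1), other scalings and filters, the replicate number as a block, the miR-126 set (divided where its log2 CPM had the widest gap), miR-21-5p left out and each library left out. A GC correction (loess, span 0.75, 91.3% of tested miRNAs with a value) and the first principal component were added after seeing the data.

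The miRNAs named are the 4 members, their other arms, miRNAs of the same seed, 10 other reported hypoxamiRs and, for each member, the 3 most correlated miRNAs. The members and lists were chosen with earlier results of these data known. MiR-103a-3p, miR-4465 (seed of miR-26) and the liver marker miR-122-5p were not analysed here, nor the sum and ratio of miR-103a-3p and miR-107.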

Additional observations from a re-analysis of the deposited data

How the results depend on the processing

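In the fits reported above no miRNA of the 3 was called, and the alternatives that called one were limma on quantile-normalized values for miR-26a-5p (-0.60 in HIF2α-KO against HIF1α-KO and 0.60 in HIF1α/HIF2α-KO against HIF2α-KO cells, on the log2 scale), the fit without a filter for miR-26b-5p (1.16 in hypoxia against normoxia, -0.80 in HIF2α-KO against control cells, and 0.78 in HIF1α-KO and 0.93 in HIF1α/HIF2α-KO cells against normoxia), and only the libraries compared for miR-26b-5p (0.87 in HIF1α/HIF2α-KO cells against normoxia). In all of these the direction stayed the same and the cause was not tested. Without the filter the SE of miR-26b-5p was 0.19 in place of 0.55 in hypoxia against normoxia. MiR-107 was called under no alternative, with an adjusted p of at least 0.144. At 3 replicates a group, the interval of miR-26b-5p in hypoxia against normoxia ran from 0.959-fold to 4.89-fold.

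Signs turned where the values reported above were near 0, but also where they were not. Those of miR-26b-5p turned from 0.87, 0.72, 0.50, 0.37, -0.24 and -0.34. In HIF1α/HIF2α-KO cells against normoxia, miR-26a-5p turned from 0.31 and the miR-26 sum from 0.33. Between HIF1α/HIF2α-KO and HIF1α-KO cells, miR-26a-5p was at -0.0042 in limma, -0.0090 with GC correction, -0.016 with the block and GC correction and -0.057 with the first principal component, its sum with miR-26b-5p at -0.044, -0.0021, -0.0098 and -0.060 in the same order and -0.031 with at least 10 counts, and miR-107 at 0.011 with total counts, 0.020 with only the libraries compared, 0.059 with GC correction, 0.059 with the block as well and 0.067 with the component. In limma, miR-107 was at -0.062 in HIF1α/HIF2α-KO cells against normoxia and the interaction of the miR-26 sum at -0.013. With the miR-126 set as a covariate, miR-26b-5p was at 0.10 in HIF1α/HIF2α-KO against control cells and 0.16 in HIF2α-KO against HIF1α-KO cells. With the component as a covariate, hypoxia against normoxia gave -0.12 for miR-26a-5p, -0.11 for the sum and 0.032 for miR-107, HIF1α/HIF2α-KO cells against normoxia gave -0.033 for miR-26a-5p, -0.046 for the sum and -0.53 for miR-26b-5p, and miR-26b-5p was at 0.34 in HIF2α-KO against HIF1α-KO, -0.27 in HIF1α/HIF2α-KO against HIF2α-KO, -0.60 in HIF1α-KO against normoxia and -0.26 in HIF2α-KO against normoxia. None of these was called, and the cause was not tested. All 3 normoxic libraries scored above 0 on the component, so as a covariate it takes up part of every comparison with normoxia.

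With single libraries left out, miR-26b-5p ranged on the log2 scale from -0.51 to 0.037 in HIF1α/HIF2α-KO, and from -0.74 to 0.068 in HIF1α-KO, against control cells, from -1.05 to 0.0015 in HIF2α-KO and from -0.33 to 0.52 in HIF1α/HIF2α-KO against HIF1α-KO cells, and from -0.31 to 0.61 in HIF2α-KO cells against normoxia. That of miR-107 ranged from -0.0023 to 0.27 in HIF1α-KO against control cells, from -0.10 to 0.13 in HIF1α/HIF2α-KO against HIF1α-KO cells and from -0.079 to 0.16 in HIF1α-KO cells against normoxia, and without replicate 2 of HIF2α-KO cells its values against HIF1α-KO cells, the double knockout and normoxia were nearer to 0. MiR-26a-5p ranged from -0.18 to 0.15 in HIF1α/HIF2α-KO against HIF1α-KO cells and from -0.31 to 0.044 in HIF2α-KO cells against normoxia, and the sum from -0.16 to 0.17 and from -0.30 to 0.059. The log2 ratio of miR-26b-5p to miR-26a-5p ranged from -0.41 to 0.57 in HIF2α-KO and from -0.14 to 0.84 in HIF1α/HIF2α-KO against HIF1α-KO cells, and from -0.24 to 0.74 in HIF1α-KO cells against normoxia. No call was made in these fits.

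The number of miRNAs called over the whole table, behind the percentages above, was less stable. In HIF1α-KO against control cells it was 7, and 12 by DESeq2, 11 with at least 10 counts, 0 with only the libraries compared, 13 with the component and 2 to 6 with a library left out. In HIF1α/HIF2α-KO against control cells it was 33, and 50 with total counts, 60 by DESeq2, 56 with at least 10 counts, 61 with the set, 53 with GC correction and 15 to 32 with a library left out. In HIF2α-KO against HIF1α-KO cells it was 6, and 12 with total counts, 20 by DESeq2, 14 without a filter, 17 with at least 10 counts, 0 with only the libraries compared, 23 with GC correction, 11 with the component and 2 to 18 with a library left out. In HIF1α/HIF2α-KO against HIF1α-KO cells it was 8, and 25 by DESeq2, 16 in limma, 26 without a filter, 4 with at least 10 counts, 0 with only the libraries compared, 5 with the set, 19 with GC correction and 0 to 14 with a library left out. In HIF1α/HIF2α-KO against HIF2α-KO cells it was 10, and 19 by DESeq2, 21 without a filter, 2 with only the libraries compared and 2 to 17 with a library left out. Against normoxia it was 13 in HIF1α-KO cells, and 7 with total counts, 20 by DESeq2, 26 without a filter, 3 with the set, 4 with the component and 3 to 9 with a library left out, and 36 in HIF1α/HIF2α-KO cells, and 78 without a filter, 77 with only the libraries compared, 8 with the component and 14 to 28 with a library left out. Where it was 0, the fit without a filter gave 15 in hypoxia against normoxia, 11 in HIF2α-KO against control cells, 13 in HIF2α-KO cells against normoxia and 5 for the interaction, and leaving out a library gave 0 to 10 in HIF2α-KO against control cells and 0 to 18 in HIF2α-KO cells against normoxia, with the highest values without replicate 1 of HIF2α-KO cells. With total counts the mean level of miR-107 in HIF1α/HIF2α-KO cells was 1467 in place of 1390 CPM.

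The replicate numbers in the labels were not shown to pair the libraries. The correlation of the deviations of libraries with the same number from their group means was between -0.617 and 0.554, and in no comparison was it over 0.1 for all 3 numbers. In 0 of the 10 pairs of groups did every library correlate best with that of its own number. With the number as a block, the count in HIF2α-KO against HIF1α-KO cells was 3 in place of 6, the other counts were within 1.5 times, and no call of the 3 miRNAs changed, with the GC correction or without it.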
